A study of Rattus norvegicus with 12 samples.

Results

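The genes described here code for the enzymes that write and erase DNA methylation and histone marks, as expressed in rat pancreatic islets. They were taken by symbol from the deposited count table: the DNA methyltransferases (Dnmt), the TET dioxygenases, the histone deacetylases (Hdac) and sirtuins (Sirt), the lysine demethylases (Kdm), the lysine acetyltransferases (Kat), the arginine methyltransferases (Prmt) and the lysine methyltransferases of the Kmt, Setd, Ezh, Ehmt and Suv families. Of 25888 symbols in the table, 74 were members, each represented by its transcript with the highest mean count, and 72 had enough counts to be tested. The 2 others, Prmt8 and Kdm4d, had fewer than 1 CPM in every library. Symbols such as Setdb1 or the Nsd genes are not covered by these names.

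The libraries came from islets of Sprague Dawley rats in 4 groups of 3: 10-week-old rats with intrauterine growth restriction (IUGR), 10-week-old controls, 2-week-old IUGR rats and 2-week-old controls. Growth restriction was brought about by tying both uterine arteries of the dam at embryonic day 18, a surgical model in which no gene is altered, and control litters were culled to 8 pups. All dams and pups ate standard chow at will, and islets were freed with collagenase and cleaned on a density gradient. The labels call the libraries of a group biological replicates and say nothing of pooled animals, litters or sex, so p-values measure the spread between these libraries. IUGR islets were compared with control islets at both ages, 10-week with 2-week islets within both groups, and the difference between the effects was tested.

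DNA methyltransferases add methyl groups to cytosines, and TET enzymes oxidise them, the first step of their removal. On histones, acetyltransferases and deacetylases set the acetylation that goes with active genes. Lysine methyltransferases and demethylases set marks that go with active genes or, as with the methylation of histone H3 by the Polycomb enzymes Ezh1 and Ezh2, with silent ones. In islets these enzymes are known from mouse work on beta cell maturation and division, where Dnmt3a takes part in shutting off genes that mature beta cells keep low and Ezh2 in silencing the cell cycle inhibitor locus Cdkn2a in young beta cells. In the rat IUGR model, silencing of the beta cell factor Pdx1 has been tied to histone deacetylation and DNA methylation at its promoter.

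Libraries held 30396759 to 64201627 counts. Levels are given as CPM, the counts in each 1000000 counts of a library's total after TMM scaling, which compare 1 gene between libraries, not genes with each other. Dnmt1, Dnmt3a and Ezh2, the markers of this gene set, were counted in all 12 libraries. A list of acinar genes, which make digestive enzymes outside the islet, took 0.625% to 2.33% of counts in 10-week IUGR libraries and 13.96% to 47.5% in 10-week controls, and 4.38% to 9.38% in 2-week IUGR libraries and 21.7% to 42.3% in 2-week controls. No found gene of this list or of the islet, proliferation, mesenchyme, endothelial, macrophage or ductal lists was at 0 in all libraries of a group. The summed level of 30 proliferation genes (all 30 found) was 272 to 308 CPM in 10-week IUGR libraries and 275 to 532 in 10-week controls, against 913 to 1007 in 2-week IUGR libraries and 885 to 1030 in 2-week controls. Among 10-week controls, replicate 2 stood apart with the highest proliferation sum (532 CPM) and the lowest acinar share (13.96%), beside 287 and 275 CPM and shares of 42.99% and 47.5% in replicates 1 and 3. In such bulk samples, fewer cells of a type and less RNA per cell cannot be told apart.

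**Figure D1:**
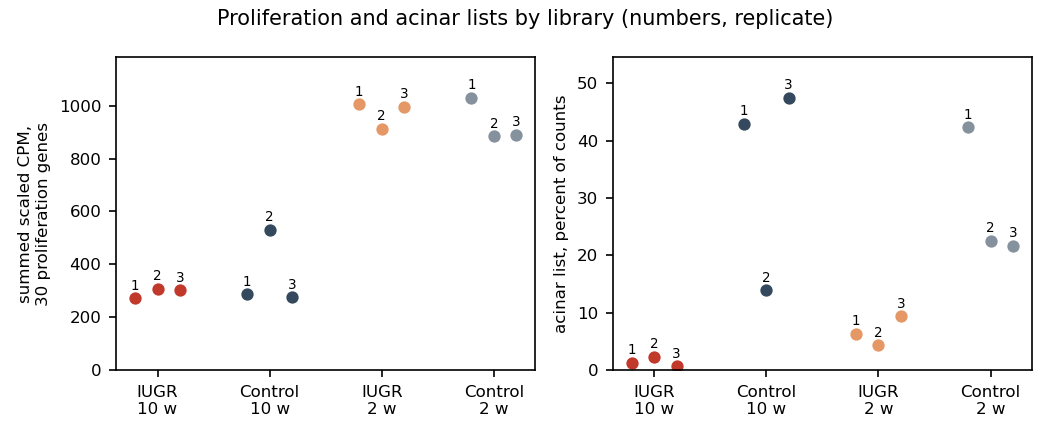
Left, the summed scaled CPM of 30 proliferation genes in each library (points, numbered by replicate), and right, the percentage of counts in the acinar list, for the 4 groups. The 2-week libraries had proliferation sums of 885 CPM or more, all above the 10-week libraries, among which control replicate 2 was the highest.

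More members were called with age than between IUGR and control islets, and most of those called with age fell. By edgeR's quasi-likelihood test with an adjusted p under 0.05, 21 of 72 members fell and 11 rose between 2 and 10 weeks in IUGR islets, which is 29.2% and 15.3%, against 29.2% and 27.3% of the 20733 transcripts tested. In control islets 22 members fell (30.6%) and 4 rose (5.56%), against 15.1% and 17.2% of all transcripts. The share that fell was thus near the background in IUGR islets and above it in controls, and the share that rose was below it in both. Both age comparisons use separate libraries, though within 1 fit that shares its estimate of the spread. In them 13 members fell in both while 3 rose in both and none changed in opposite directions. The ages did not overlap for 46 of 72 members in IUGR islets and 28 in controls. These joint counts and overlaps were not counted over all transcripts. The median log2 fold change with age was -0.06 over members in IUGR islets and -0.21 in controls, against 0.00 and 0.00 over all transcripts.

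Between IUGR and control islets, 5 members were lower and 6 higher at 10 weeks. These are 6.94% and 8.33% of members, against 15.5% and 12.4% of all transcripts, and 15.3% in all against 27.9%. At 2 weeks 2 were lower and none higher. The 2.78% lower compares with 2.21% of all transcripts, of which 3.88% were called and 1.66% were higher. The IUGR effect differed between the ages for 3 members, 4.17% against 14.3%. For 2 the difference was positive and for 1 negative (2.78% and 1.39%, against 3.97% and 10.4% of all transcripts). By edgeR at an adjusted p under 0.05 these shares were near or below the background. The share of members lower at 2 weeks was above it by DESeq2 (19.4% against 6.89% of all transcripts). By edgeR at an adjusted p under 0.1 that share was above the background too (22.2% against 7.35%). The medians over members were 0.07 at 10 weeks and -0.08 at 2 weeks, against -0.01 and 0.05 over all transcripts. Over all 5 comparisons, 27 of the 72 tested members were called in none, a share that was not counted over all transcripts.

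**Figure D2:**
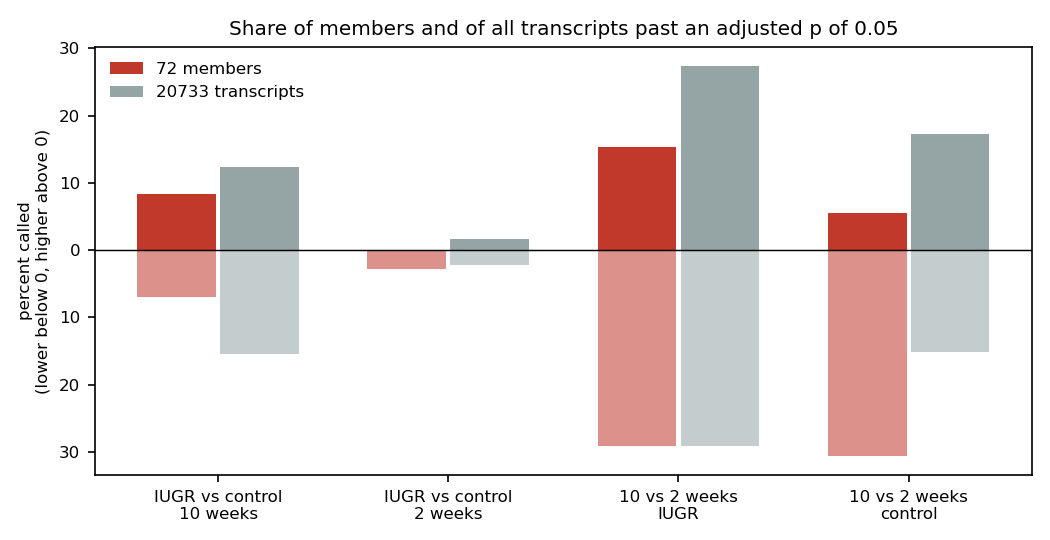
Percentage of the 72 tested members (red) and of all 20733 transcripts tested (grey) with an adjusted p under 0.05, higher above 0 and lower (paler) below 0, in 4 comparisons. Members that fell with age made up 29.2% in IUGR and 30.6% in control islets, while 6.94% were lower in IUGR than in control islets at 10 weeks.

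The 3 catalytic DNA methyltransferases all fell with age, in IUGR and in control islets. Dnmt1, which copies methylation onto new DNA strands during replication, had 26.4, 25.9 and 24.98 CPM in 10-week IUGR libraries and 22.1, 35.1 and 26.7 in 10-week controls. At 2 weeks Dnmt1 had 47.2, 48.6 and 51.99 CPM in IUGR libraries and 47.1, 47.7 and 42.5 in controls. Its levels at 10 weeks lay below all 2-week levels in both groups. The log2 fold change was -0.94 ± 0.14 in IUGR islets (± gives the standard error throughout, with n = 3 in each group, adjusted p = 0.000194) and -0.71 ± 0.14 in controls (adjusted p = 0.00328). The highest 10-week level was that of control replicate 2, the library with the highest proliferation sum of its age. Dnmt3a, which places methylation at new sites, had 38.5, 31.6 and 34.1 CPM in 10-week IUGR libraries and 30.04, 33.97 and 25.5 in 10-week controls. At 2 weeks Dnmt3a had 52.9, 56.1 and 56.998 CPM in IUGR libraries and 49.97, 54.2 and 49.7 in controls. It fell by 0.67 ± 0.11 on the log2 scale in IUGR islets (adjusted p = 0.000372) and by 0.78 ± 0.11 in controls (adjusted p = 0.000620), with no overlap between ages. Dnmt3b, the other de novo enzyme, had 2.31, 2.37 and 2.99 CPM in 10-week IUGR libraries and 1.71, 2.44 and 3.14 in 10-week controls. At 2 weeks Dnmt3b had 5.22, 5.87 and 4.91 CPM in IUGR libraries and 5.32, 6.101 and 5.59 in controls. Every 10-week library lay below every 2-week one. Its log2 fold changes were -1.06 ± 0.20 in IUGR islets (adjusted p = 0.000907) and -1.23 ± 0.20 in controls (adjusted p = 0.00136). Dnmt3l, a partner of the de novo enzymes without catalytic activity of its own, had few counts, with 0.139, 0.199 and 0.247 CPM in 10-week IUGR libraries and 0.0951, 0.705 and 0.146 in 10-week controls. At 2 weeks Dnmt3l had 0.0567, 0.0776 and 0.0835 CPM in IUGR libraries and 0.0286, 0.117 and 0.0392 in controls. Its rise in controls (log2 fold change 2.32 ± 0.76, adjusted p = 0.0378) was 0.86 without control replicate 2 at 10 weeks. It did not pass without 10-week IUGR replicate 2 or 10-week control replicate 2 or any 2-week IUGR replicate or 2-week control replicate 1 or 3 (adjusted p = 0.0514 to 0.366).

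Falls of Dnmt1, Dnmt3a and Dnmt3b passed in both groups under every alternative run. That of Dnmt1 in controls was -0.38 without 10-week control replicates 1 and 3, the libraries of high acinar share. In that fit replicate 2 was the only 10-week control. Over the same ages, 30 of 30 proliferation genes fell in IUGR islets and 27 of 30 in controls, and 19 and 15 of 19 mesenchyme genes, while 13 and 12 of 17 islet endocrine genes rose. Summed mesenchyme levels were 794 to 999 CPM in 10-week IUGR libraries and 1605 to 3116 in 10-week controls, and, at 2 weeks, 12776 to 14700 in 2-week IUGR libraries and 6239 to 10801 in 2-week controls. The part of these cell types and of division in the age differences was not tested.

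Of the TET enzymes, Tet1 and Tet3 fell with age in both groups and Tet2 passed in neither. Tet1 had 8.57, 8.92 and 7.02 CPM in 10-week IUGR libraries and 5.99, 7.08 and 6.21 in 10-week controls. At 2 weeks Tet1 had 13.3, 13.7 and 11.3 CPM in IUGR libraries and 12.3, 14.2 and 13.2 in controls, with no overlap between ages in either group. Its log2 fold change was -0.64 ± 0.12 in IUGR islets (adjusted p = 0.000978) and -1.04 ± 0.12 in controls (adjusted p = 0.000290). Tet3, which showed the larger falls of the family, had 5.01, 4.86 and 5.36 CPM in 10-week IUGR libraries and 8.81, 11.1 and 8.21 in 10-week controls. At 2 weeks Tet3 had 12.4, 14.6 and 13.5 CPM in IUGR libraries and 29.05, 22.2 and 15.2 in controls. It changed by -1.41 ± 0.20 in IUGR islets (adjusted p = 0.000180) and by -1.24 ± 0.20 in controls (adjusted p = 0.00135). The 2-week controls were widely spread for Tet3, from 15.2 CPM in replicate 3 to 29.05 in replicate 1, the library with the highest acinar share of its age (42.3%). Tet2 had 48.6, 45.5 and 51.97 CPM in 10-week IUGR libraries and 39.1, 42.1 and 34.7 in 10-week controls. At 2 weeks Tet2 had 42.9, 47.4 and 35.9 CPM in IUGR libraries and 44.3, 50.8 and 48.3 in controls. Its log2 fold changes with age were 0.21 ± 0.11 in IUGR islets (adjusted p = 0.134) and -0.31 ± 0.11 in controls (adjusted p = 0.0596), and the difference between both was 0.52 ± 0.16 (adjusted p = 0.0541).

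The Polycomb enzymes Ezh2 and Ezh1 changed in opposite directions with age. Ezh2, the form known from dividing cells, had 7.82, 7.497 and 8.11 CPM in 10-week IUGR libraries and 7.03, 13.6 and 6.499 in 10-week controls. At 2 weeks Ezh2 had 16.95, 16.5 and 16.1 CPM in IUGR libraries and 17.7, 16.6 and 15.8 in controls. It fell in IUGR islets (log2 fold change -1.08 ± 0.22, adjusted p = 0.00170) and in controls (log2 fold change -0.88 ± 0.22, adjusted p = 0.0125), with no overlap between ages. In 10-week controls replicate 2 lay closest to the 2-week libraries, as for Dnmt1 and the proliferation sum. With 10-week control replicates 1 and 3, the ones of high acinar share, left out, replicate 2 was the only 10-week control. The log2 fold change of Ezh2 in controls was then -0.30. In a fit of the 6 control libraries alone Ezh2 did not pass (adjusted p = 0.0825). Ezh1, the form known from resting cells, had 57.2, 51.4 and 51.6 CPM in 10-week IUGR libraries and 51.6, 44.9 and 46.1 in 10-week controls. At 2 weeks Ezh1 had 30.7, 31.5 and 31.5 CPM in IUGR libraries and 36.4, 38.6 and 38.4 in controls. Its log2 fold change was 0.77 ± 0.08 in IUGR islets (adjusted p = 1.68e-05) and 0.33 ± 0.08 in controls (adjusted p = 0.00803), and these rises differed by 0.44 ± 0.11 (adjusted p = 0.0211). The 2-week IUGR libraries lay below all 2-week controls, while at 10 weeks the groups just overlapped, with the lowest IUGR and the highest control library at 51.4 and 51.6 CPM. The difference between the rises did not pass without 10-week IUGR replicate 1 or 2-week IUGR replicate 1 or 2 (adjusted p = 0.0511 to 0.0575). The rise in controls did not pass in a fit of the 6 control libraries alone. It was 0.25 on the log2 scale in the fit with replicate 2 as the only 10-week control.

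**Figure D3:**
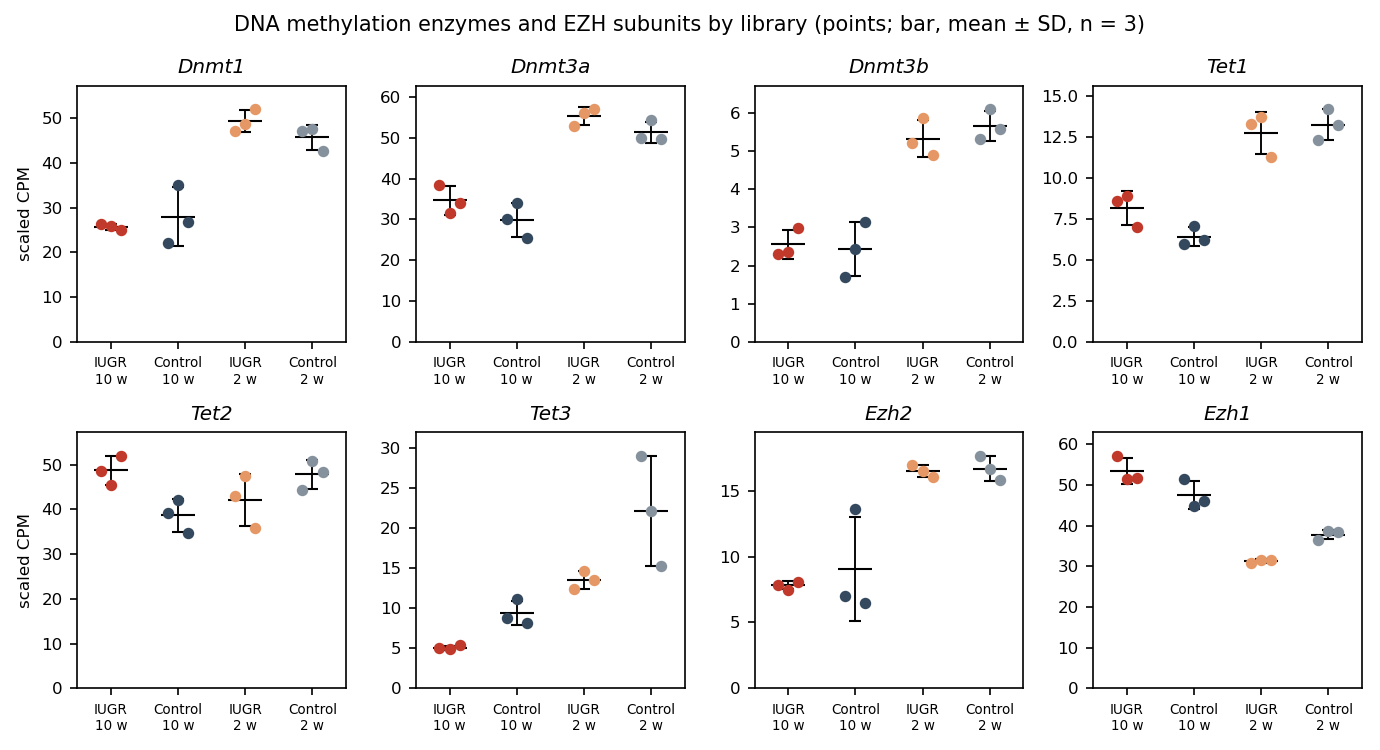
Scaled CPM (y axis, from 0) of the DNA methyltransferases Dnmt1, Dnmt3a and Dnmt3b, the dioxygenases Tet1, Tet2 and Tet3, and Ezh2 and Ezh1 in each library of the 4 groups, with the mean and SD of 3 libraries. All 10-week libraries lie below the 2-week libraries for Dnmt1, Dnmt3a, Dnmt3b, Tet1, Tet3 and Ezh2, and above them for Ezh1.

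The promoters of Dnmt1 and Ezh2 are shown because both genes fell with age together with the proliferation list and are known from cultured mammalian cells as targets of the E2F factors of the cell cycle. The windows of 300 bases, 250 before and 50 after the start of a RefSeq gene in the rat assembly GRCr8, were searched on both strands for the E2F motif in the 4 spellings TTTCCCGC, TTTCGCGC, TTTGCCGC and TTTGGCGC. For 58 of 74 members a window was at hand (76 windows, as some genes have several starts), and 4 held a spelling, 5.26% of the members' windows against 2.14% of all 33469 windows. The 4 were Dnmt1 and Ezh2, which fell with age in both groups, and Kdm1a and Sirt5, which were called with age in neither and are shown beside them for that reason. The other members that fell in both groups, such as Dnmt3a, Dnmt3b, Tet1 and Tet3, held no spelling or were among the 16 members without a window. The motif, in capitals, starts at base 276 of the window in Dnmt1 (read on the other strand), 260 in Ezh2, 285 in Kdm1a and 149 in Sirt5. A match describes the letters and does not show binding, and these coordinates belong to another build than the counts. The part of E2F factors in the age differences was not tested.
Dnmt1, GRCr8 chr8:27762792-27763091, minus strand: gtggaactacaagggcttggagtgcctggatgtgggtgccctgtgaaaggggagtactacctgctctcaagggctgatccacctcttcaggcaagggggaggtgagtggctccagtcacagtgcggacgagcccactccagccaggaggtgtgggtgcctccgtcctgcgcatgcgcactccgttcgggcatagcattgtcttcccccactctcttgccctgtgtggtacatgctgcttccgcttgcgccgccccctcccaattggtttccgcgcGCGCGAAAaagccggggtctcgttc
Ezh2, GRCr8 chr4:77687134-77687433, minus strand: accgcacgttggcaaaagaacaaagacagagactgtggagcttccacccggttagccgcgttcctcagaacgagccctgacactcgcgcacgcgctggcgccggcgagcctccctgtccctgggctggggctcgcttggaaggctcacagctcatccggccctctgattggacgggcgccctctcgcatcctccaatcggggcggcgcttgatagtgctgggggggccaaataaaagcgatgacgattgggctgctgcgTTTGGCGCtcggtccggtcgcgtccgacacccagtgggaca
Kdm1a, GRCr8 chr5:154121726-154122025, minus strand: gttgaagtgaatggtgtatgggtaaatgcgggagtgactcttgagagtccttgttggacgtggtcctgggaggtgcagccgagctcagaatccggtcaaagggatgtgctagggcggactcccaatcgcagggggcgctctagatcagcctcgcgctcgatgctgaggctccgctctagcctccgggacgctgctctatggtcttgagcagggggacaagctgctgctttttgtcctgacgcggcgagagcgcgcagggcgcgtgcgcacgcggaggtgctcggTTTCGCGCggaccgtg
Sirt5, GRCr8 chr17:21543007-21543306, minus strand: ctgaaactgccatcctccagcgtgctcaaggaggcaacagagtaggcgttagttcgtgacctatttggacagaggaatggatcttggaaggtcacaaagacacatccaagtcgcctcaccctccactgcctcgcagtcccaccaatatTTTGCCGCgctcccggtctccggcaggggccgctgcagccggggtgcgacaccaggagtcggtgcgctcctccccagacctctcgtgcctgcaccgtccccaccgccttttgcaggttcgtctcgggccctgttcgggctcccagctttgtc

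Of the 16 members of the Kmt, Setd, Ehmt and Suv families, 3 fell and 2 rose with age in IUGR islets, and 9 fell and 1 rose in controls. Of all transcripts, 29.2% fell and 27.3% rose in IUGR islets, and 15.1% and 17.2% in controls. Setd7 was the member that rose in both. Setd7, which methylates histone H3 and other proteins and is known in beta cell lines as a partner of Pdx1 at the insulin gene, had 36.4, 36.9 and 35.7 CPM in 10-week IUGR libraries and 30.9, 26.4 and 26.3 in 10-week controls. At 2 weeks Setd7 had 23.4, 19.9 and 18.9 CPM in IUGR libraries and 11.4, 18.8 and 19.6 in controls. All 10-week libraries lay above all 2-week libraries. The log2 fold change was 0.81 ± 0.17 in IUGR islets (adjusted p = 0.00222) and 0.75 ± 0.17 in controls (adjusted p = 0.00857). In a fit of the 6 control libraries alone the rise in controls did not pass. The lowest of all libraries was 2-week control replicate 1, with the highest acinar share of its age. Setd6, which methylates a subunit of NF-kB, rose in IUGR islets (log2 fold change 0.44 ± 0.13, adjusted p = 0.0159), though not without 10-week IUGR replicate 3 or 2-week IUGR replicate 2 (adjusted p = 0.0627 to 0.0647), and not in controls (0.13 ± 0.14, adjusted p = 0.492). The difference between these effects did not pass (0.31 ± 0.19, adjusted p = 0.295).

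Of the 5 Kmt members, most of which methylate histone H3 at active genes, Kmt2b and Kmt2d fell in both groups and Kmt2a, Kmt2c and Kmt2e in neither. Kmt2d, an enzyme of enhancers, had 20.8, 16.1 and 18.7 CPM in 10-week IUGR libraries and 28.8, 52.8 and 24.97 in 10-week controls. At 2 weeks Kmt2d had 32.6, 47.5 and 33.2 CPM in IUGR libraries and 104, 85.3 and 44.997 in controls. Its log2 fold changes were -1.03 ± 0.33 in IUGR islets (adjusted p = 0.0207) and -1.13 ± 0.33 in controls (adjusted p = 0.0231). Libraries of one group were widely spread for this gene, and the ages overlapped in controls, where 10-week replicate 2 lay above 2-week replicate 3. Its fall did not pass in IUGR islets without 10-week IUGR replicate 2 or 3 or 2-week IUGR replicate 2 (adjusted p = 0.0533 to 0.0816), nor in controls without 10-week control replicate 1 or 3 or 2-week control replicate 1 or 2 (adjusted p = 0.0666 to 0.0796). Kmt2b fell by 0.56 ± 0.21 in IUGR islets (adjusted p = 0.0441) and by 0.70 ± 0.21 in controls (adjusted p = 0.0284). It did not pass in IUGR islets without any 10-week IUGR replicate or 10-week control replicate 1 or 2-week IUGR replicate 2 or 3 (adjusted p = 0.0525 to 0.178), nor in controls without 10-week control replicate 1 or 3 or 2-week control replicate 1 or 2 (adjusted p = 0.0704 to 0.0978). Without 10-week control replicates 1 and 3 together, replicate 2 was the only 10-week control. The values in controls were then -0.56 for Kmt2d and -0.35 for Kmt2b. In a fit of the 6 control libraries alone the adjusted p was 0.0931 for Kmt2d and 0.102 for Kmt2b.

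Ehmt1 fell in both groups and its partner Ehmt2, with which it methylates histone H3 at silent genes, in neither. Ehmt1 had 29.1, 29.6 and 29.4 CPM in 10-week IUGR libraries and 28.96, 30.3 and 28.7 in 10-week controls. At 2 weeks Ehmt1 had 38.4, 42.01 and 39.7 CPM in IUGR libraries and 45.9, 41.5 and 39.6 in controls. The log2 fold change was -0.45 ± 0.07 in IUGR islets (adjusted p = 0.000411) and -0.53 ± 0.07 in controls (adjusted p = 0.000603), and the libraries of each age were close together. For Ehmt2 the values were -0.17 ± 0.08 (adjusted p = 0.113) and -0.13 ± 0.08 (adjusted p = 0.244). Falls that passed in controls and not in IUGR islets were those of Suv420h1 (-0.32 ± 0.08) and Suv420h2 (-0.73 ± 0.16), which methylate histone H4. The same held for Setd1b (-0.91 ± 0.30), Setd2 (-0.47 ± 0.15), which methylates histone H3 along transcribed genes, Setd4 (-0.52 ± 0.10) and Setd5 (-0.41 ± 0.09). The adjusted p of these 6 lay between 0.00393 and 0.0372. In IUGR islets their values ran from -0.53 to -0.11, and for none of them did the difference between the age effects pass (adjusted p = 0.0835 to 0.758). Leaving out 1 library ended the calls of Setd1b, without 10-week control replicate 1 or 3 or 2-week IUGR replicate 3 or 2-week control replicate 1 or 2 (adjusted p = 0.0517 to 0.128). The call of Setd2 ended without 10-week IUGR replicate 2 or 10-week control replicate 1 or 3 or 2-week IUGR replicate 1 or 2-week control replicate 1 or 2 (adjusted p = 0.0502 to 0.117). In a fit of the 6 control libraries alone Suv420h1, Suv420h2, Setd1b, Setd2 and Setd5 did not pass, while Setd4 did. Suv39h2, an enzyme of constitutive heterochromatin, had 1.48, 1.89 and 2.397 CPM in 10-week IUGR libraries and 1.43, 2.304 and 1.13 in 10-week controls. At 2 weeks Suv39h2 had 2.88, 2.89 and 2.74 CPM in IUGR libraries and 2.15, 1.66 and 2.28 in controls. It did not pass with age (-0.56 ± 0.26 in IUGR islets, adjusted p = 0.0871, and -0.31 ± 0.27 in controls, adjusted p = 0.393). Setd1b has another entry in the table under a symbol in capitals, so reads may be split between both.

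Of the 7 arginine methyltransferases tested, 2 fell and 1 rose with age in IUGR islets (all transcripts: 29.2% and 27.3%), and 1 rose in controls (all transcripts: 17.2%). Prmt1, the main enzyme of asymmetric arginine methylation, had 34.1, 35.3 and 38.1 CPM in 10-week IUGR libraries and 32.6, 33.6 and 28.6 in 10-week controls. At 2 weeks Prmt1 had 45.3, 43.6 and 45.3 CPM in IUGR libraries and 34.97, 34.8 and 37.5 in controls. It fell in IUGR islets (log2 fold change -0.32 ± 0.08, adjusted p = 0.00546) and not in controls (-0.18 ± 0.08, adjusted p = 0.108), and the difference did not pass (-0.14 ± 0.11, adjusted p = 0.432). Prmt3, which methylates a ribosomal protein, rose in both (0.42 ± 0.11, adjusted p = 0.00623, and 0.36 ± 0.11, adjusted p = 0.0254), in controls not without 10-week control replicate 1 or 2 or 2-week control replicate 2 or 3 (adjusted p = 0.0582 to 0.0910). Prmt2 fell in IUGR islets (-0.41 ± 0.13, adjusted p = 0.0202), not without 10-week IUGR replicate 2 or 3 or 10-week control replicate 3 or 2-week IUGR replicate 3 (adjusted p = 0.0541 to 0.0755). Prmt5, the enzyme of symmetric methylation, stood at 0.23 ± 0.09 in IUGR islets (adjusted p = 0.0615) and 0.02 ± 0.10 in controls (adjusted p = 0.906).

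Of the 7 acetyltransferases none passed with age in controls by edgeR (1 at an unadjusted p under 0.05, 0 by DESeq2), where edgeR called 32.3% of all transcripts. In IUGR islets Kat7 and Kat8, which acetylate histones H3 and H4, rose by 0.20 ± 0.06 (adjusted p = 0.0168) and 0.29 ± 0.10 (adjusted p = 0.0294), and Kat6a fell (-0.44 ± 0.12, adjusted p = 0.0107). Kat7 had 45.3, 42.3 and 43.3 CPM in 10-week IUGR libraries and 39.3, 38.04 and 36.5 in 10-week controls. At 2 weeks Kat7 had 38.7, 37.5 and 37.5 CPM in IUGR libraries and 37.7, 37.2 and 38.2 in controls. The range was narrow and the 10-week IUGR libraries were the highest. Leaving out 1 library ended these calls for Kat7 without 10-week IUGR replicate 1 or 2-week IUGR replicate 2 or 3 (adjusted p = 0.0556 to 0.0670) and for Kat8 without 10-week IUGR replicate 2 or 3 or any 2-week IUGR replicate (adjusted p = 0.0566 to 0.0872). The call of Kat6a ended without 2-week IUGR replicate 2 (adjusted p = 0.0520). Kat2a, Kat2b and Kat5, which act as coactivators, had log2 fold changes between -0.31 and 0.18 with age, none past the threshold.

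Of the 11 histone deacetylases, 4 fell and 1 rose with age in IUGR islets (all transcripts: 29.2% and 27.3%) and 3 fell in controls (all transcripts: 15.1%). Hdac6, a cytoplasmic enzyme that deacetylates tubulin, fell in both groups. It had 34.2, 30.6 and 31.2 CPM in 10-week IUGR libraries and 30.4, 30.7 and 31.1 in 10-week controls. At 2 weeks Hdac6 had 52.8, 48.5 and 50.8 CPM in IUGR libraries and 46.3, 44.1 and 57.2 in controls, with no overlap between ages. The log2 fold change was -0.66 ± 0.10 in IUGR islets (adjusted p = 0.000199) and -0.68 ± 0.10 in controls (adjusted p = 0.000726). Hdac7, a class IIa enzyme known from vessel and lymphoid cells of mice, had 4.48, 4.48 and 4.97 CPM in 10-week IUGR libraries and 6.53, 15.6 and 8.62 in 10-week controls. At 2 weeks Hdac7 had 16.9, 19.6 and 16.2 CPM in IUGR libraries and 12.6, 18.8 and 14.8 in controls. It fell in IUGR islets by 1.92 ± 0.27 on the log2 scale (adjusted p = 0.000160) and was not called in controls (-0.58 ± 0.26, adjusted p = 0.110). The difference between these effects was -1.33 ± 0.37 (adjusted p = 0.0374). Over the same ages, 13 of 15 endothelial genes fell in IUGR islets and 2 in controls (all transcripts: 29.2% and 15.1%). Their summed level was 485 to 665 CPM in 10-week IUGR libraries and 718 to 1218 in 10-week controls, against 1081 to 1287 in 2-week IUGR libraries and 615 to 1001 in 2-week controls. The part of endothelial cells in the Hdac7 values was not tested.

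Hdac1 and Hdac2, the class I pair of several repressor complexes, had smaller estimates. Hdac1 had 45.9, 49.4 and 42.4 CPM in 10-week IUGR libraries and 40.7, 51.5 and 44.9 in 10-week controls. At 2 weeks Hdac1 had 59.2, 60.5 and 57.5 CPM in IUGR libraries and 41.1, 47.4 and 50.1 in controls. It fell in IUGR islets (log2 fold change -0.36 ± 0.10, adjusted p = 0.0119), though not without 10-week IUGR replicate 3 (adjusted p = 0.0516), and stood at -0.02 ± 0.10 in controls (adjusted p = 0.921). Hdac2 fell by 0.28 ± 0.09 in IUGR islets (adjusted p = 0.0261) and by 0.30 ± 0.09 in controls (adjusted p = 0.0347). The call in IUGR islets ended without 10-week IUGR replicate 1 or 3 or 10-week control replicate 1 or 3 or any 2-week IUGR replicate (adjusted p = 0.0565 to 0.0952), and that in controls ended without 10-week control replicate 2 or any 2-week IUGR replicate or 2-week control replicate 1 or 3 (adjusted p = 0.0505 to 0.0933). Hdac10, a polyamine deacetylase, fell in controls (log2 fold change -0.44 ± 0.11, adjusted p = 0.0115) and stood at 0.08 ± 0.11 in IUGR islets (adjusted p = 0.534). Hdac11, the only class IV enzyme, rose in IUGR islets (log2 fold change 0.71 ± 0.25, adjusted p = 0.0333), not without any 10-week IUGR replicate or 2-week IUGR replicate 1 or 2 (adjusted p = 0.0569 to 0.105). Hdac3, Hdac4, Hdac5, Hdac8 and Hdac9 were called in no comparison, with age effects between -0.21 and 0.28.

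Of the 7 sirtuins, 3 rose and 1 fell with age in IUGR islets (all transcripts: 27.3% and 29.2%). In controls none passed by edgeR, which called 32.3% of all transcripts there (1 sirtuin at an unadjusted p under 0.05, and 1, Sirt1, lower by DESeq2). Sirt1, the nuclear sirtuin that promotes insulin secretion in mouse beta cells, had 15.9, 15.2 and 14.95 CPM in 10-week IUGR libraries and 16.5, 16.3 and 19.8 in 10-week controls. At 2 weeks Sirt1 had 22.5, 23.7 and 19.97 CPM in IUGR libraries and 20.3, 20.6 and 21.5 in controls. It fell in IUGR islets (log2 fold change -0.52 ± 0.09, adjusted p = 0.000737) and stood at -0.25 ± 0.09 in controls (adjusted p = 0.0659). The mitochondrial Sirt4, which in mouse beta cells restrains glutamate dehydrogenase, had 2.48, 2.64 and 2.17 CPM in 10-week IUGR libraries and 1.62, 1.55 and 1.53 in 10-week controls. At 2 weeks Sirt4 had 1.46, 1.33 and 1.87 CPM in IUGR libraries and 1.55, 1.47 and 1.78 in controls. All 10-week IUGR libraries lay above every other library, and the log2 fold change was 0.64 ± 0.17 in IUGR islets (adjusted p = 0.00842) and -0.03 ± 0.18 in controls (adjusted p = 0.913). Sirt3, the main mitochondrial deacetylase, rose by 0.55 ± 0.18 (adjusted p = 0.0207), not without 10-week IUGR replicate 2 or 2-week IUGR replicate 1 or 2 (adjusted p = 0.0522 to 0.0684), and the nucleolar Sirt7 by 0.43 ± 0.10 (adjusted p = 0.00393) in IUGR islets. The test of the difference between the age effects passed for none of these 4 (adjusted p = 0.0934 to 0.520). Sirt2, Sirt5 and Sirt6 had age effects between -0.05 and 0.22, none called. Sirt6 showed little spread, with every library between 9.26 and 10.6 CPM.

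Of 15 lysine demethylases tested, 4 fell and 1 rose with age in IUGR islets (all transcripts: 29.2% and 27.3%), and 4 fell in controls (all transcripts: 15.1%). Kdm3b and Kdm4b, which remove methyl groups from histone H3, fell in both, Kdm4b by 0.28 ± 0.07 in IUGR islets (adjusted p = 0.00748) and 0.47 ± 0.07 in controls (adjusted p = 0.00109). Kdm3b fell by 0.27 ± 0.08 (adjusted p = 0.0155) and 0.33 ± 0.08 (adjusted p = 0.0125). Within one family the direction differed, as Kdm4c, a relative of Kdm4b with the same substrates, rose in IUGR islets (log2 fold change 0.47 ± 0.08, adjusted p = 0.000408). Kdm4c had 47.7, 54.5 and 48.3 CPM in 10-week IUGR libraries and 40.02, 37.99 and 41.2 in 10-week controls. At 2 weeks Kdm4c had 37.1, 36.9 and 34.7 CPM in IUGR libraries and 36.3, 33.5 and 36.6 in controls. Kdm6b, which removes the mark that Ezh1 and Ezh2 write and is known as a gene induced by inflammatory signals in mouse macrophages, had 3.84, 2.59 and 3.56 CPM in 10-week IUGR libraries and 6.37, 14.6 and 7.16 in 10-week controls. At 2 weeks Kdm6b had 8.86, 13.3 and 6.68 CPM in IUGR libraries and 13.3, 14.3 and 10.4 in controls. It fell in IUGR islets (log2 fold change -1.53 ± 0.34, adjusted p = 0.00277) and was not called in controls (-0.43 ± 0.33, adjusted p = 0.329), with a difference of -1.10 ± 0.47 that did not pass (adjusted p = 0.136). Its relative Kdm6a did not pass with age (-0.37 ± 0.17, adjusted p = 0.0755, and -0.46 ± 0.17, adjusted p = 0.0560). Kdm2b, which demethylates histone H3 and belongs to a Polycomb complex, fell in IUGR islets (-0.38 ± 0.09, adjusted p = 0.00491). In controls Kdm8 (-0.38 ± 0.11) and Kdm5b (-0.20 ± 0.07) fell, with adjusted p of 0.0195 and 0.0455.

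Leaving out 1 library ended the age calls of Kdm3b in IUGR islets without 10-week IUGR replicate 1 or 10-week control replicate 3 or 2-week IUGR replicate 2 (adjusted p = 0.0505 to 0.0666). The call of Kdm4b in IUGR islets ended without 10-week control replicate 2 or 3 (adjusted p = 0.0510 to 0.0573), and that of Kdm8 in controls without 10-week control replicate 2 or 3 or 2-week control replicate 1 (adjusted p = 0.0553 to 0.0662). That of Kdm5b in controls ended without any 10-week IUGR replicate or 10-week control replicate 2 or 3 or any 2-week IUGR replicate or any 2-week control replicate (adjusted p = 0.0541 to 0.147).

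**Figure D4:**
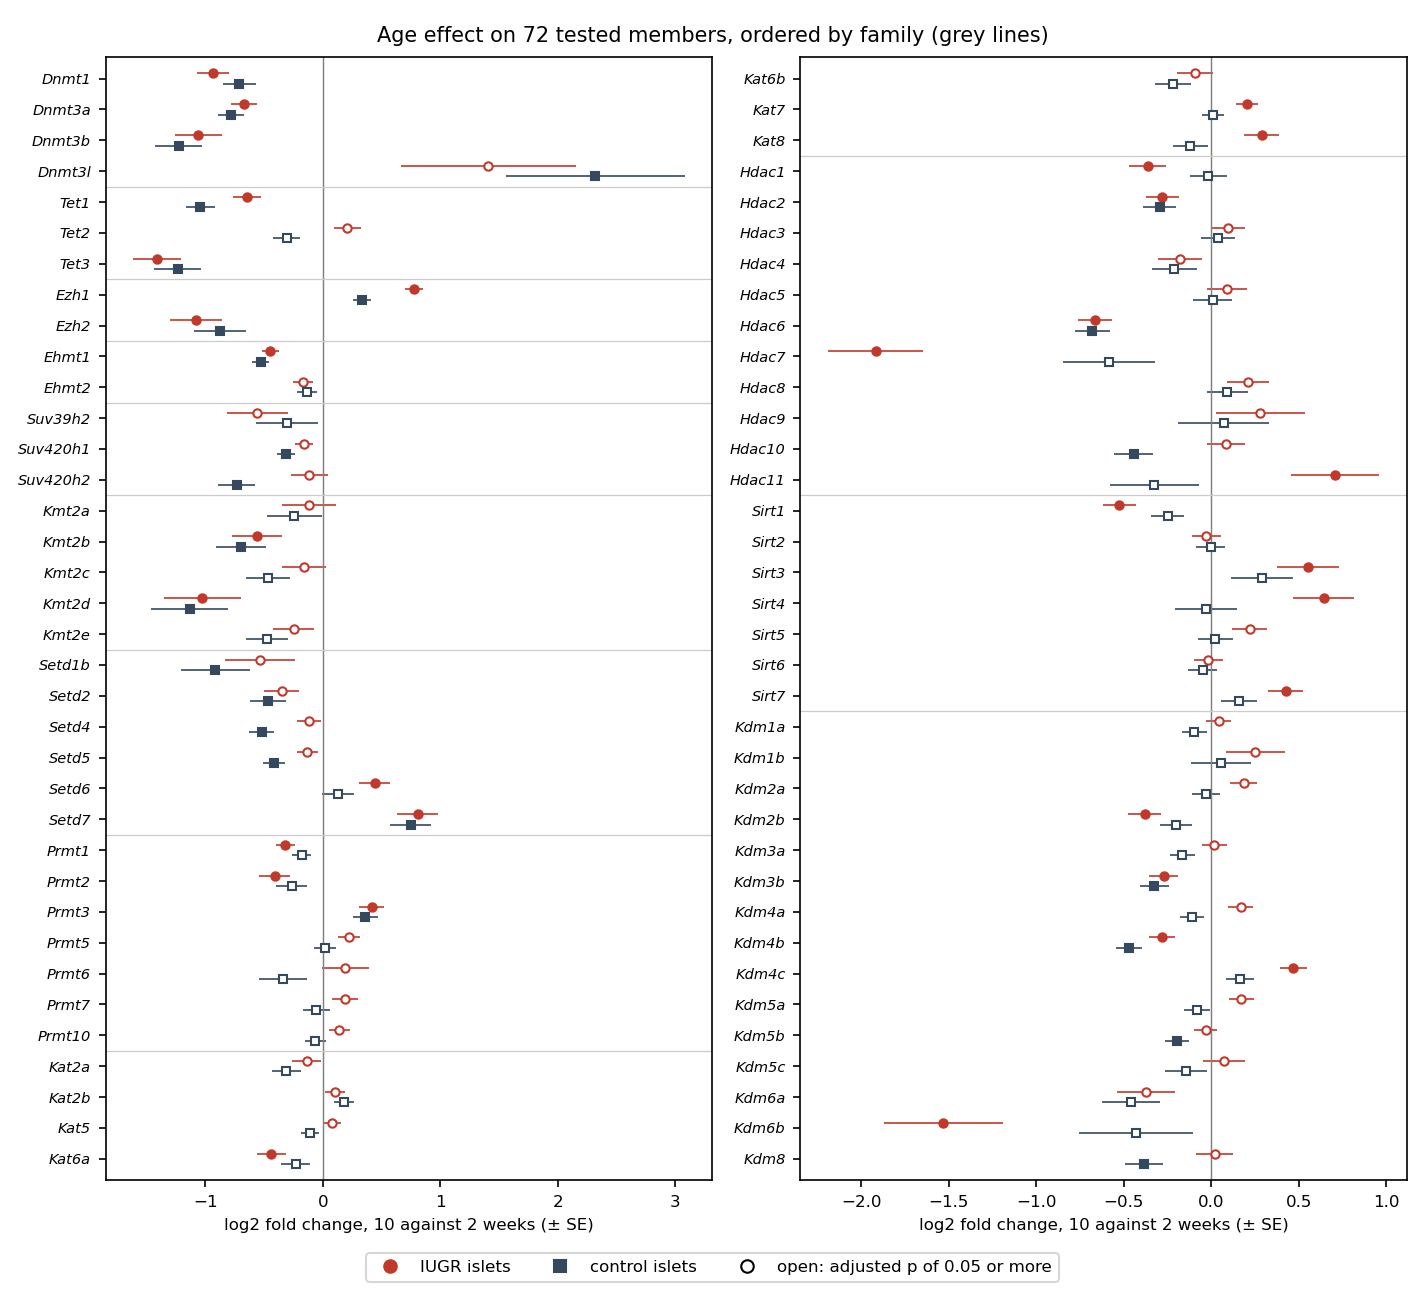
Log2 fold change between 10 and 2 weeks with its standard error for each of the 72 tested members in IUGR islets (red circles) and control islets (dark squares), grouped by family, with open symbols for an adjusted p of 0.05 or more. Dnmt1, Dnmt3a, Dnmt3b, Tet1, Tet3 and Ezh2 lie left of 0 in both, Ezh1 and Setd7 right of 0 in both, and Hdac7 and Kdm6b lie furthest left in IUGR islets.

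Partners and relatives outside these names were counted from fixed lists. Of 17 genes around DNA methylation, 7 fell and 2 rose with age in IUGR islets and 4 fell and 4 rose in controls. Uhrf1, which brings Dnmt1 to replicating DNA, fell by 2.38 ± 0.38 in IUGR islets (adjusted p = 0.000361) and 1.71 ± 0.37 in controls (adjusted p = 0.00615). Tdg, the glycosylase that removes cytosines oxidised by TET enzymes, fell in both (-0.45 ± 0.07 and -0.46 ± 0.07, adjusted p = 0.000405 and 0.00119). Of 26 Polycomb genes, 10 fell and 5 rose in IUGR islets and 8 fell and 2 rose in controls. Rnf2, the ubiquitin ligase of the other Polycomb complex, fell in both (-0.88 ± 0.09 and -0.49 ± 0.09, adjusted p = 1.68e-05 and 0.00202). Neither Eed nor Suz12, the core partners of Ezh1 and Ezh2, which were picked after their values were seen, was called (0.22 ± 0.09 and 0.15 ± 0.09 for Eed, 0.13 ± 0.10 and -0.09 ± 0.10 for Suz12, adjusted p from 0.0615 to 0.490). Of 10 partners of the Kmt enzymes 3 fell and 1 rose in IUGR islets and 2 fell and 0 rose in controls. Wdr5, a shared subunit of these complexes, fell in both (-0.48 ± 0.08 and -0.40 ± 0.08, adjusted p = 0.000336 and 0.00321). For 22 acetylation genes the counts were 9 lower and 3 higher in IUGR islets and 5 lower and 2 higher in controls. For 14 other methyltransferases they were 4 lower and 5 higher in IUGR islets and 4 lower and 0 higher in controls. For 7 other demethylases they were 2 and 2 in IUGR islets and 1 and 0 in controls. Of all transcripts tested, 56.5% were called with age in IUGR islets and 32.3% in controls.

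Of the 32 age calls in IUGR islets, 18 passed under every alternative run, which included other tools, scalings and filters and the removal of single libraries. They were Dnmt1, Dnmt3a, Dnmt3b, Ehmt1, Ezh1, Ezh2, Hdac6, Hdac7, Kdm2b, Kdm4c, Kdm6b, Prmt1, Prmt3, Setd7, Sirt1, Sirt4, Tet1 and Tet3. Of the 26 in controls, 8 did so, and they were Dnmt1, Dnmt3a, Dnmt3b, Ehmt1, Hdac6, Kdm4b, Tet1 and Tet3. The share of calls that passed in every run was not counted over all transcripts. Among these runs was the fit without 10-week control replicates 1 and 3, with replicate 2 as the only 10-week control. There Setd1b stood at -0.53, Setd2 at -0.25 and Hdac2 at -0.53 in controls, against -0.30 for Hdac2 with all libraries. In the 6 control libraries alone 9 members fell and none rose (12.7% fell, against 7.899% of all transcripts, of which 9.58% rose). They were the 8 that passed in every run and Setd4, so the calls of Hdac10 and Kdm3b, among others, ended there. When the acinar list's level entered the fit, the age effects in IUGR islets were 1.32 (adjusted p = 0.000493) for Hdac11, 0.93 (adjusted p = 0.00123) for Sirt3, 0.49 (adjusted p = 0.00230) for Kat8 and -0.12 (adjusted p = 0.372) for Hdac2, and Kat7, Kdm4b and Sirt7 no longer passed. In IUGR libraries that level did not overlap between the ages, so this fit cannot tell it from age.

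Between IUGR and control islets at 10 weeks, Kdm6b, Hdac7 and Tet3 had the largest falls among the members called, and 6 members rose. Kdm6b had 3.84, 2.59 and 3.56 CPM in 10-week IUGR libraries, against 6.37, 14.6 and 7.16 in 10-week controls, without overlap (log2 fold change -1.50 ± 0.34, adjusted p = 0.0103). Among the controls replicate 2 was the highest. Without it the log2 fold change was -0.998 (adjusted p = 0.0319). A fit with the acinar list's level as covariate gave -2.94 (adjusted p = 0.0166). That level, as centred mean log2 CPM, was -3.98 to -2.30 in 10-week IUGR libraries and 0.33 to 3.27 in 10-week controls. Without overlap between the groups, such a fit cannot tell it from IUGR. Hdac7 had 4.48, 4.48 and 4.97 CPM in 10-week IUGR libraries, against 6.53, 15.6 and 8.62 in 10-week controls, again without overlap and with control replicate 2 the highest (log2 fold change -1.15 ± 0.27, adjusted p = 0.0121). Without that library the value was -0.68 (adjusted p = 0.0234), and with the acinar covariate -2.56 (adjusted p = 0.00686). Kdm6b and Hdac7 were the members that passed in this comparison under every alternative run, which was not counted over all transcripts. Tet3 had 5.01, 4.86 and 5.36 CPM in 10-week IUGR libraries, against 8.81, 11.1 and 8.21 in 10-week controls (log2 fold change -0.89 ± 0.21, adjusted p = 0.0109). Tet3 and Kdm4c passed in all alternatives but 1, that with the acinar level as a covariate (log2 fold change -0.95 ± 0.47, adjusted p = 0.210 for Tet3, and log2 fold change 0.51 ± 0.18, adjusted p = 0.0924 for Kdm4c).

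The other falls were those of Sirt2 and Kdm2b. Sirt2, a cytoplasmic sirtuin that deacetylates tubulin, had 17.8, 17.7 and 18.8 CPM in 10-week IUGR libraries, against 22.3, 20.6 and 23.7 in 10-week controls (log2 fold change -0.30 ± 0.08, adjusted p = 0.0240). Kdm2b had 15.001, 13.4 and 15.2 CPM in 10-week IUGR libraries, against 18.2, 17.7 and 16.9 in 10-week controls (log2 fold change -0.28 ± 0.09, adjusted p = 0.0484). Increases were seen for Kdm4c, with 47.7, 54.5 and 48.3 CPM in 10-week IUGR libraries, against 40.02, 37.99 and 41.2 in 10-week controls (log2 fold change 0.34 ± 0.08, adjusted p = 0.0106). Kdm1a, a demethylase of repressor complexes, had 50.5, 51.6 and 53.9 CPM in 10-week IUGR libraries, against 46.1, 42.2 and 42.8 in 10-week controls (log2 fold change 0.25 ± 0.07, adjusted p = 0.0270). Sirt4 had 2.48, 2.64 and 2.17 CPM in 10-week IUGR libraries, against 1.62, 1.55 and 1.53 in 10-week controls (log2 fold change 0.63 ± 0.18, adjusted p = 0.0240). Setd6 had 7.26, 6.35 and 7.78 CPM in 10-week IUGR libraries, against 6.12, 4.54 and 5.15 in 10-week controls (log2 fold change 0.44 ± 0.14, adjusted p = 0.0351). For these 4 the groups did not overlap, nor did they for Sirt2, Kdm2b, Kat7 and Tet2. At 10 weeks 25 of the 72 tested members had no overlap, and this was not counted over all transcripts. Kat7 rose by 0.20 ± 0.06 (adjusted p = 0.0357) and Tet2 by 0.33 ± 0.11 (adjusted p = 0.0497), with values given above. With the acinar list's level in the fit none of the 6 increases passed, where 2.05% of all transcripts were still higher. As that level did not overlap between the groups at 10 weeks, this fit cannot tell it from IUGR. Tet2 then turned to -0.20 (adjusted p = 0.564). The others kept their direction, with 0.27 (adjusted p = 0.339) for Kdm1a, 0.88 (adjusted p = 0.194) for Sirt4, 0.68 (adjusted p = 0.202) for Setd6 and 0.17 (adjusted p = 0.471) for Kat7. Of the falls, Sirt2 was then -0.12 (adjusted p = 0.709) and Kdm2b -0.22 (adjusted p = 0.534). Kdm1a, Setd6, Kat7 and Tet2 also did not pass when acinar and the 20 most abundant transcripts were left out of the scaling. In a fit of the 6 libraries of that age alone these, Sirt4, Sirt2 and Kdm2b did not pass, while Kdm4c did. Of all transcripts 10.0% were still higher with that scaling and 7.61% in that fit of 6 libraries. Without 10-week control replicates 1 and 3, which left replicate 2 as the only 10-week control, Sirt2 was -0.17 and Hdac7 -1.72. Kmt2d, not called by edgeR (log2 fold change -0.94 ± 0.33, adjusted p = 0.0551), was lower by DESeq2, which called 6 members lower and 9 higher (8.33% and 12.5%, against 18% and 15.5% of all transcripts).

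Leaving out 1 library ended the calls at 10 weeks of Sirt2 without 10-week IUGR replicate 1 or 2 or 10-week control replicate 1 or 3 (adjusted p = 0.0700 to 0.119). That of Kdm2b ended without any 10-week IUGR replicate or any 10-week control replicate or any 2-week IUGR replicate or 2-week control replicate 2 (adjusted p = 0.0663 to 0.175), and that of Kdm1a without any 10-week IUGR replicate or 10-week control replicate 2 or 3 (adjusted p = 0.0521 to 0.0953). Those of Sirt4 ended without 10-week IUGR replicate 1 or 2 or 10-week control replicate 2 or 3 (adjusted p = 0.0551 to 0.0731), and of Setd6 without 10-week IUGR replicate 1 or 3 or 10-week control replicate 2 or 3 or 2-week IUGR replicate 1 or 3 (adjusted p = 0.0513 to 0.114). The call of Kat7 ended without any 10-week IUGR replicate or 10-week control replicate 2 or 3 or any 2-week IUGR replicate (adjusted p = 0.0524 to 0.133), and that of Tet2 without any 10-week IUGR replicate or 10-week control replicate 1 or 3 or 2-week IUGR replicate 1 or 2-week control replicate 2 or 3 (adjusted p = 0.0504 to 0.154). In the same comparison 31 of 32 acinar genes, 16 of 19 mesenchyme, 12 of 15 endothelial and 4 of 14 macrophage genes were lower and 9 of 17 islet endocrine genes higher in IUGR islets. Summed macrophage levels were 87.6 to 196 CPM in 10-week IUGR libraries and 88.6 to 248 in 10-week controls. The part of mesenchyme, endothelial and macrophage cells in the values of Kdm6b, Hdac7 and the other members was not tested.

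**Figure D5:**
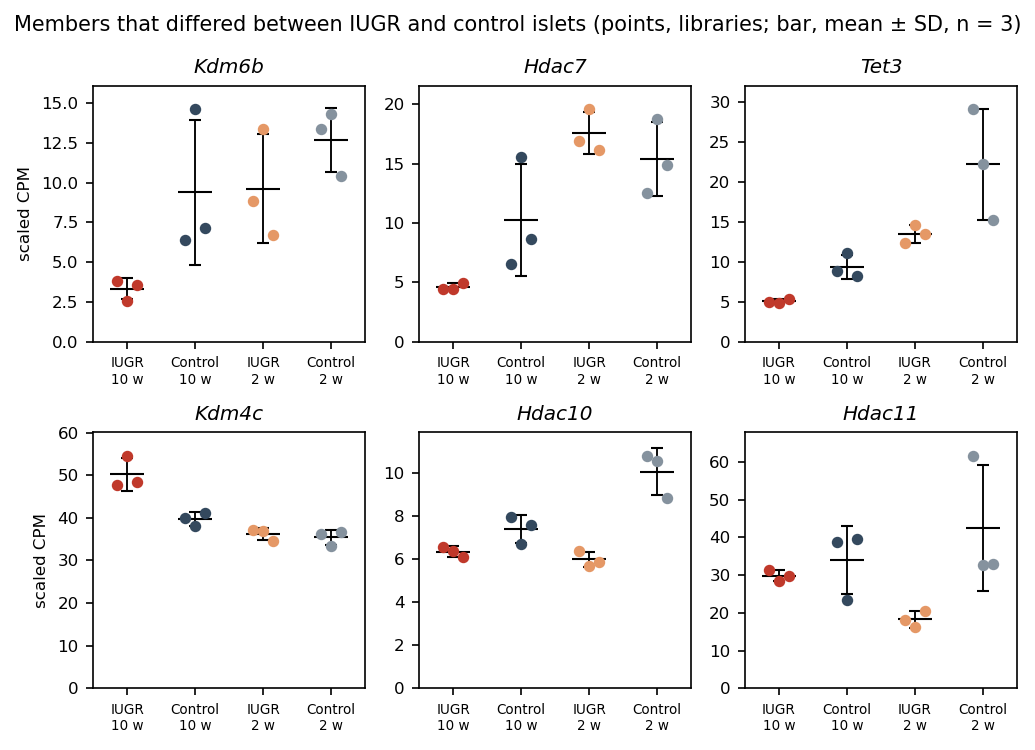
Scaled CPM (y axis, from 0) of Kdm6b, Hdac7, Tet3, Kdm4c, Hdac10 and Hdac11 in each library of the 4 groups, with the mean and SD of 3 libraries. At 10 weeks the IUGR libraries lie below all controls for Kdm6b, Hdac7 and Tet3 and above them for Kdm4c, and at 2 weeks they lie below all controls for Hdac10 and Hdac11.

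The DNA methyltransferases and Ezh2 were not called between IUGR and control islets at either age. At 10 weeks the log2 fold change was -0.12 ± 0.14 for Dnmt1 (adjusted p = 0.543), 0.22 ± 0.11 for Dnmt3a (adjusted p = 0.157), 0.08 ± 0.20 for Dnmt3b (adjusted p = 0.810) and -0.22 ± 0.22 for Ezh2 (adjusted p = 0.490). At 2 weeks it was 0.11 ± 0.14 for Dnmt1, 0.11 ± 0.11 for Dnmt3a, -0.09 ± 0.19 for Dnmt3b and -0.01 ± 0.22 for Ezh2 (adjusted p = 0.531 to 0.973). For Hdac1, which the model has been tied to at Pdx1, the values were 0.01 ± 0.10 at 10 weeks (adjusted p = 0.971) and 0.35 ± 0.10 at 2 weeks (adjusted p = 0.0717). At 2 weeks every IUGR library lay above every control for Hdac1. There 22 of the 72 tested members had no overlap, which was not counted over all transcripts. A p that misses the threshold does not show that the groups are alike.

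At 2 weeks Hdac10 and Hdac11 were the members that differed between IUGR and control islets, both lower in IUGR. Hdac10 had 6.41, 5.71 and 5.86 CPM in 2-week IUGR libraries, against 10.8, 10.6 and 8.85 in 2-week controls (log2 fold change -0.75 ± 0.11, adjusted p = 0.0223). Hdac11, known as a deacylase, had 18.1, 16.2 and 20.5 CPM in 2-week IUGR libraries, against 61.6, 32.7 and 32.8 in 2-week controls (log2 fold change -1.21 ± 0.26, adjusted p = 0.0431), the highest being control replicate 1, with an acinar share of 42.3%. The groups did not overlap for either gene, nor for 22 of the 72 tested members in all, which was not counted over all transcripts. Neither passed with the acinar level as a covariate (log2 fold change -0.55 and adjusted p = 0.375 for Hdac10, -0.44 and 0.479 for Hdac11). That level, as centred mean log2 CPM, was -1.26 to -0.39 in 2-week IUGR libraries and 1.09 to 2.73 in 2-week controls. Without overlap between the groups, the covariate fit cannot tell it from IUGR. No transcript of all those tested passed at 2 weeks in the covariate fit, nor in a fit of the 6 libraries of that age alone. Leaving out 1 library ended the call of Hdac10 without any 2-week IUGR replicate or 2-week control replicate 1 or 2 (adjusted p = 0.0814 to 0.110). That of Hdac11 ended without any 10-week IUGR replicate or 10-week control replicate 3 or any 2-week IUGR replicate or 2-week control replicate 1 or 2 (adjusted p = 0.0502 to 0.173). No member was higher by edgeR at this threshold (2 at an unadjusted p under 0.05, where 21 were lower), while DESeq2 called 2 higher and 14 lower. These are 2.78% and 19.4% of members, against 8.63% and 6.89% of all transcripts by DESeq2. By DESeq2 those higher were Prmt1 and Hdac1, and those lower included Kmt2b, Kmt2c, Kmt2d, Setd1b and Tet3 as well as Hdac10 and Hdac11. Kmt2d had 32.6, 47.5 and 33.2 CPM in 2-week IUGR libraries, against 104, 85.3 and 44.997 in 2-week controls (edgeR log2 fold change -1.05 ± 0.33, adjusted p = 0.0820), where control replicate 3 lay within the range of the IUGR libraries and the other controls above it. Of the 5 Kmt members the log2 fold changes at 2 weeks ran from -1.05 to -0.39, with none called by edgeR and 3 lower by DESeq2. At an unadjusted p under 0.05, 4 of them were lower by edgeR, a threshold that 5939 of 20733 transcripts passed in either direction.

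The IUGR effect differed between the ages for Hdac7, Ezh1 and Hdac10. For Hdac7 the log2 fold change of IUGR against control was -1.15 ± 0.27 at 10 weeks and 0.19 ± 0.26 at 2 weeks, a difference of -1.33 ± 0.37 (adjusted p = 0.0374). For Ezh1 it was 0.17 ± 0.08 at 10 weeks and -0.27 ± 0.08 at 2 weeks (difference 0.44 ± 0.11, adjusted p = 0.0211). For Hdac10 it was -0.22 ± 0.11 and -0.75 ± 0.11 (difference 0.53 ± 0.16, adjusted p = 0.0451). Each of these 3 calls ended when single libraries were left out. That of Hdac7 ended without any 10-week IUGR replicate or 10-week control replicate 3 or any 2-week IUGR replicate or 2-week control replicate 1 or 3 (adjusted p = 0.0525 to 0.0881). The call of Hdac10 ended without any 10-week IUGR replicate or 10-week control replicate 2 or 3 or any 2-week IUGR replicate or 2-week control replicate 1 or 2 (adjusted p = 0.0633 to 0.106). Without 10-week control replicate 2 the difference for Hdac7 was -0.82 (adjusted p = 0.0430). Hdac11, called at 2 weeks and not at 10, had a difference of 1.03 ± 0.36 that did not pass (adjusted p = 0.0766).

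Among partner genes, 3 of 17 around DNA methylation were lower and 2 higher in IUGR islets at 10 weeks. Gadd45g, of a family linked to demethylation and stress, was lower (-1.09 ± 0.18, adjusted p = 0.00277), as was Ahcy (-1.28 ± 0.30, adjusted p = 0.0117), which clears the product that inhibits methyltransferases, while Uhrf2, a relative of Uhrf1, was higher (0.45 ± 0.08, adjusted p = 0.00436). Ahcy was lower at 2 weeks too (-1.76 ± 0.30, adjusted p = 0.0290). Of the 26 Polycomb genes 2 were higher at 10 weeks, with the histone binding protein Rbbp7 among those higher (0.49 ± 0.10, adjusted p = 0.00765). At 2 weeks 2 were lower, Phf1 (-0.49 ± 0.10, adjusted p = 0.0423) and Cbx2 (-0.59 ± 0.15, adjusted p = 0.0495). Of 14 other methyltransferases 1 was lower and 2 were higher at 10 weeks, and Prdm16, a factor of several stem cell and fat cell types in mice, was lower at 10 weeks (-1.10 ± 0.23, adjusted p = 0.00780) and at 2 weeks (-0.95 ± 0.22, adjusted p = 0.0478). For acetylation genes the counts at 10 weeks were 1 lower and 2 higher of 22. Of all transcripts 15.5% were lower and 12.4% higher at 10 weeks, and 2.21% lower at 2 weeks, and the shares of these lists at 10 weeks lie near or below that. At 2 weeks no transcript passed with the acinar covariate, in the fit of 6 libraries or without 2-week IUGR replicate 1 or 3. The 2-week calls of Ahcy, Phf1, Cbx2 and Prdm16 thus ended in each of these runs.

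The 27 members called in no comparison, a share not counted over all transcripts, included Ehmt2, Kdm5a and Kat2b. Ehmt2 had between 69.4 and 90.9 CPM over the 12 libraries, Kdm5a, which demethylates histone H3 at active genes, between 85.6 and 109, and Kat2b, a coactivator, between 57.4 and 74.9. Kdm6a was more spread within groups, with 51.5, 40.5 and 50.4 CPM in 2-week IUGR libraries and 58.4, 34.3 and 45.6 in 2-week controls. At the other end, Prmt8, a brain enzyme, had at most 0.146 CPM in any library and Kdm4d, known from testis, at most 0.306. The names of all 27 are Ehmt2, Hdac3, Hdac4, Hdac5, Hdac8, Hdac9, Kat2a, Kat2b, Kat5, Kat6b, Kdm1b, Kdm2a, Kdm3a, Kdm4a, Kdm5a, Kdm5c, Kdm6a, Kmt2a, Kmt2c, Kmt2e, Prmt10, Prmt5, Prmt6, Prmt7, Sirt5, Sirt6 and Suv39h2.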

How the data were processed

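RNA of islets from 12 libraries was sequenced with a stranded total RNA kit after removal of ribosomal RNA, per the labels' protocols. The deposited table holds raw counts per transcript, whole numbers with no scaling. TopHat2 2.0.9 and bedtools and the builds rn5 and mm9 are named in the submitters' processing notes without their roles. For the counting rule and its use of strand, the sources used here give nothing, so genes that overlap or share reads with a near copy are uncertain. The strand setting could also split an antisense pair.

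From these counts, edgeR 4.0.16 (R 4.3.3, limma 3.58.1) was run on all 30309 transcripts with its default filter on low counts (20733 kept), TMM factors and the quasi-likelihood test, with 1 mean for each of the 4 groups and Benjamini-Hochberg adjustment over all transcripts tested. All 12 libraries share one estimate of the spread. A call is an adjusted p under 0.05. CPM are counts in each 1000000 of the TMM-scaled total. The number of libraries and their depth, 30396759 to 64201627 counts, limit the precision. Replicates differed by more than sampling noise. All sample columns of the table were used. The code was tested on simulated data.

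Each symbol is represented by its transcript with the highest mean count, and 15 members have several. Kmt2e has another with identical counts. Suv39h1, named in the plan, is not analysed here. Named members are, per family and comparison, up to 3 higher and 3 lower of the largest change among those called, plus a fixed set. Context genes are those of the smallest adjusted p in each list. Further members and Kdm5a, Kmt2c and Kmt2e were named to account for all of them after their values were seen. The members and lists were chosen with earlier results of these data known. The settings also tried were a DESeq2 1.42.0 fit, scaling by RLE factors, omission of the filter, a threshold of 0.1, a replicate block, the acinar level as a covariate, scaling without acinar and the 20 most abundant transcripts, fits of 6 libraries, 1 transcript per symbol and the removal of libraries. Promoter windows are RefSeq's (GRCr8).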

Additional observations from a re-analysis of the deposited data

Results flagged for a closer look

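For Ezh1, Hdac10 and Hdac7 the test of the difference between the IUGR effects at 10 and 2 weeks passed. The difference was 0.44 for Ezh1, 0.53 for Hdac10 and -1.33 for Hdac7 on the log2 scale (edgeR, adjusted p = 0.0211, 0.0451 and 0.0374). Ezh1 and Hdac10 differed between IUGR and control islets more at 2 weeks, both lower in IUGR by their estimates, and Hdac7 at 10 weeks. When the acinar list's level entered the fit as a covariate, the difference came to 0.49 ± 0.14, adjusted p = 0.0283 for Ezh1, 0.72 ± 0.17, adjusted p = 0.0152 for Hdac10 and -2.000 ± 0.27, adjusted p = 0.00151 for Hdac7. That level did not overlap between IUGR and control libraries at either age, so this fit cannot tell it from IUGR.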

How the results depend on the processing

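At 2 weeks, the 0 members higher in IUGR became 2 with DESeq2, 2 at an adjusted p under 0.1, 1 with the other scaling and 1 with 1 transcript per symbol. The 2 lower became 14 with DESeq2, 1 with no filter and 16 at 0.1 (22.2% of members, against 7.35% of all transcripts). They became 0 both with the acinar covariate and in the fit of 6 libraries, where no transcript at all passed. At 10 weeks, the 6 higher became 10 at 0.1, 0 with the covariate, and 2 with the other scaling and with 6 libraries, and the 5 lower became 3 with the covariate. For the difference, the 2 higher became 7 with DESeq2, 1 with no filter, 11 at 0.1, 8 with the covariate and 1 with the other scaling, and the 1 lower became 2 with the covariate. With age in controls, the 4 higher became 0 and the 22 lower became 9 with 6 libraries, and the counts in IUGR islets moved by less than 1.5 times under these settings. Counts without 10-week control replicates 1 and 3 are not given, as replicate 2 was then the only 10-week control. Leaving out 1 library at a time gave 1 to 7 higher and 3 to 7 lower at 10 weeks, 0 to 2 and 0 to 11 at 2 weeks, 0 to 11 and 0 to 1 for the difference, 2 to 4 and 16 to 24 with age in controls, and 6 to 19 and 16 to 22 with age in IUGR islets. Tet2 at 10 weeks reversed to -0.20 with the covariate (adjusted p = 0.564), whose level did not overlap between IUGR and control libraries at either age. The cause of these changes was not tested, beyond fewer libraries in the fit. The fit of 6 libraries was not run for the difference.

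Whether replicate numbers pair the samples is not known, and the main fit used no pairing. Deviations of same-numbered libraries correlated at -0.14 to 0.48 across transcripts and not above 0.1 in every pair of any comparison. Such correlations cannot show that samples were unpaired. With the replicate number as a block the counts were 5 higher and 5 lower at 10 weeks, 0 and 3 at 2 weeks, 3 and 1 for the difference, 4 and 23 with age in controls and 11 and 22 in IUGR islets. Counts of a few reads limit Dnmt3l, Prmt8 and Kdm4d, and 3 libraries per group limit all tests.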
